A study of Drosophila melanogaster with 4 samples.

Results

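Dense runs of H3K9ac clusters are stretches of the large autosome arms where 4 or more successive enriched regions, called clusters here, follow each other at short distances. They were chosen by position in the authors' list for the whole series. Each cluster of a run had to be shorter than 10 kb, and each gap between neighbours had to be under 1500 bp. On the arms 2L, 2R, 3L and 3R this rule found 249 runs with 1175 clusters, out of 9740 clusters on these arms and 12182 in the list. Since the positions chose the runs, their number, lengths and gaps are a description and carry no test.

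Wild-type Oregon-R Drosophila melanogaster (Oregon-R-modENCODE) were used as mixed adults raised in population cages, and nuclei came from sieved heads. All libraries share this strain and genotype, and the labels name no treatment. ChIP-seq of H3K9ac gave 2 ChIP libraries, each with its own input library out of 2. A cluster list was deposited for each ChIP replicate and 1 for the series as a whole, in coordinates of FlyBase release 5. Nothing in the labels tells if separate cages stand behind the replicates, and the spread between them may be technical.

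H3K9ac, acetylation of lysine 9 on the tail of histone H3, is placed by acetyltransferases such as Gcn5 and is found around the start sites of active genes and over the beginning of their transcribed parts. The fly genome is compact, and neighbouring genes often have start sites close to each other. The head is a mixture of neurons, glia, photoreceptors, muscle and fat body, so a cluster says nothing about which cells carry it. A mark in few cells and a weak mark in many cannot be told apart in such material. No gene annotation or genome sequence of release 5 was used here, so runs are given by position, with no gene names and no bases.

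Most runs were short. The minimum of 4 clusters was met exactly by 155 runs, 51 runs had 5 clusters and 25 had 6. The other sizes were 7 clusters in 8 runs, 8 in 5 runs, 9 and 10 in 1 run each, 11 in 2 runs and 13 in 1 run. Just below the minimum, 414 strings of exactly 3 clusters and 1271 pairs met the same limits on length and gap. The median span of a run was 15.8 kb, with an interquartile range of 12.4 to 21.0 kb and extremes of 6.12 and 50.6 kb. Together the runs spanned 4.31 Mb, or 4.46% of the arms. Clusters covered a median of 86.9% of a run, from 65.3% to 98.7%.

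**Figure D1:**
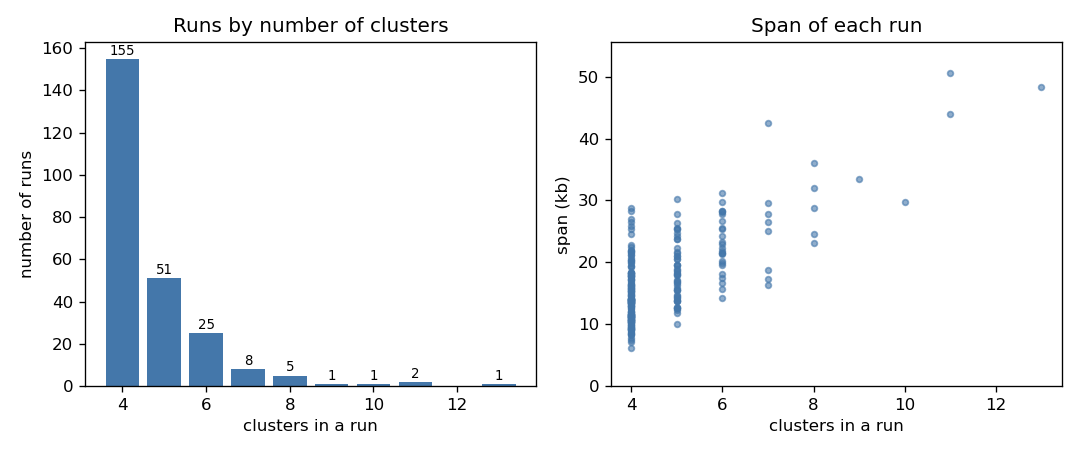
The left panel gives the number of runs (bars) for each number of clusters in a run, and the right panel the span in kb of each of the 249 runs (points). Runs of 4 clusters made up 155 of the runs, and spans reached 50.6 kb.

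Short gaps were common on these arms, which is the background for the runs. Of all 9736 gaps between neighbouring autosomal clusters, 34.9% were under 1500 bp. The runs held 926 of these 3398 gaps. The median gap in a run was 505 bp, with quartiles of 190 and 939 bp. Narrow gaps were frequent, with 139 of the gaps (15.0%) under 100 bp, 317 from 100 to 499 bp, 270 from 500 to 999 bp and 200 from 1000 to 1499 bp. At the lower extreme, in a run at 2L 5868806 to 5882578, 2 clusters shared the base 5872586 and so had no gap, yet both replicates kept them as separate clusters.

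The limits cut through a continuous range of values. The widest gaps inside runs measured 1499 bp (3R 22127671 to 22129169), 1495 bp (2R 6465005 to 6466499) and 1489 bp (3R 11981647 to 11983135). The narrowest gaps that ended a run measured 1503 bp (3R 13141195 to 13142697), 1521 bp (3L 17108469 to 17109989) and 1523 bp (2R 20101331 to 20102853). The longest run clusters had 9989, 9943 and 9869 bp, on 2L, 3L and 3R. The shortest clusters of at least 10 kb that lay within the gap limit of a run had 10231, 10607 and 10767 bp, on 3R, 2R and 2L. A gap ended 471 of the 498 run ends, and a long cluster ended the other 27. These 27 ends belonged to 27 different runs, and no run lay between 2 such clusters.

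All 4 arms carried runs at similar densities. There were 63 runs on 2L, 55 on 2R, 55 on 3L and 76 on 3R, or 2.74, 2.60, 2.24 and 2.72 runs per Mb. The share of an arm's clusters that lay in runs was 12.7% on 2L (exact 95% interval 11.4 to 14.1), 11.3% on 2R (9.97 to 12.7), 11.3% on 3L (10.1 to 12.7) and 12.8% on 3R (11.6 to 14.1). These intervals overlap. They cover counting error only and treat clusters as independent. Median spans lay between 15.6 and 16.1 kb on all arms.

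Along the arms the runs were spread out, with a median distance of 252 kb between neighbouring runs. Even so, 22 of the 245 distances were under 20 kb. The closest pair, 3R 26115196 to 26130784 with 5 clusters and 3R 26132692 to 26141908 with 4, lay 1907 bp apart. Of 95 full 1-Mb windows, 8 held the start of no run, 27 held 2 and 1 held 7. That window, 2L 19000001 to 20000000, had 39 of its 131 clusters in runs. Windows with 6 runs were 2L 1000001 to 2000000, 2L 4000001 to 5000000, 2R 13000001 to 14000000 and 3R 8000001 to 9000000. Runs took the highest share of clusters in 3R 12000001 to 13000000, where 32 of 75 clusters (42.7%) lay in runs. Across windows, the number of runs had a Spearman's rho of 0.45 with the number of clusters and 0.09 with the number of clusters of 10 kb or more. Windows share an arm and a list, and a window with more clusters has more chances of a run.

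Few runs lay next to the centromere on 3 of the arms. The last 1 Mb of 2L and of 3L and the first 1 Mb of 2R held no run, but also few clusters, with 21, 8 and 19. These counts are too small to be set against the arm shares in runs, 12.7% on 2L, 11.3% on 3L and 11.3% on 2R. The first 1 Mb of 3R held 2 runs with 10 of its 104 clusters. Over 2 Mb, 2R still held no run among 87 clusters. The last 2 Mb of 2L held 2 runs with 9 of 79 clusters, and those of 3L held 1 run with 4 of 71. The first 2 Mb of 3R held 5 runs with 25 of 225 clusters. Absence of runs was not restricted to these ends. The windows 2L 3000001 to 4000000 and 3R 10000001 to 11000000 had 107 clusters each, none of them in a run.

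The surroundings of the runs were close to the average of the arms in H3K9ac cover. In replicate 1, the 50 kb on each side of a run were covered to a median of 27.3%, against 25.5% beside the other autosomal clusters under 10 kb and 26.1% over the arms as a whole. In replicate 2 these values were 29.6%, 28.5% and 28.7%. Single runs ranged widely, from 0% to 64.1% in replicate 1 and from 0% to 70.0% in replicate 2. The difference between runs and other clusters was 1 to 2 percentage points, within quartiles of 19.3% and 35.7% for the runs in replicate 1.

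Of the 10 runs with the most clusters, 3R, 2L and 3L held 3 each and 2R held 1. The run with the most, 13 clusters over 48.4 kb at 3R 12327662 to 12376030, had gaps from 25 to 961 bp and scores from 0.327 to 0.702. It was followed by 2 runs of 11 clusters, 2L 19602278 to 19652830 with the longest span of all, 50.6 kb, and 3R 13633464 to 13677442 with 44.0 kb. On 3L there were runs of 10 clusters (15862900 to 15892698), 9 clusters (9972578 to 10005978) and 8 clusters (13602680 to 13638708). The remaining runs of 8 clusters were 2R 11169180 to 11201248, 2L 12235690 to 12264528, 2L 16050184 to 16074718 and 3R 22118740 to 22141906. Median scores of these 10 runs lay between 0.388 and 0.513.

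**Figure D2:**
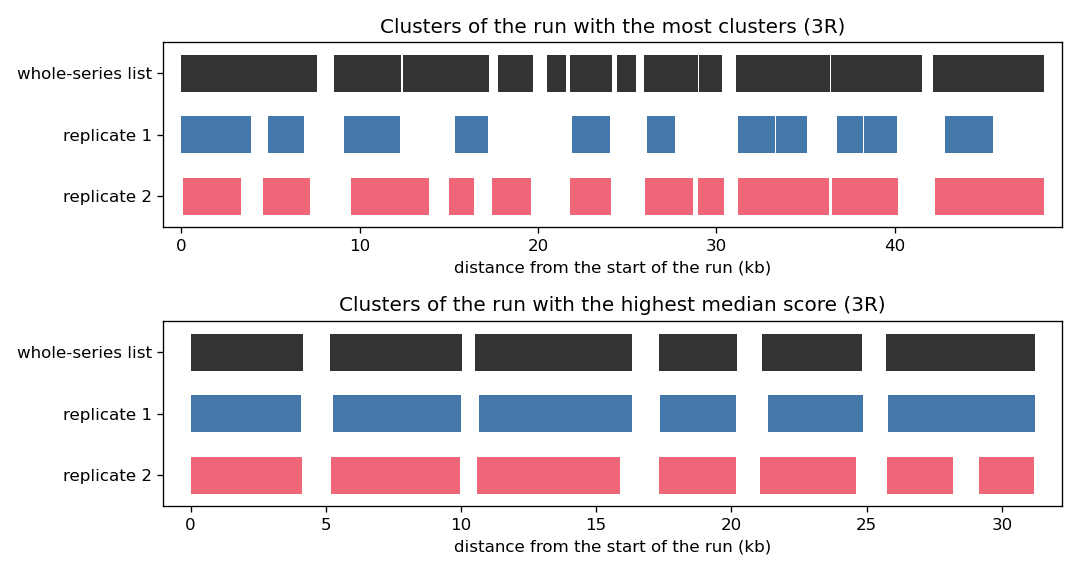
Clusters (blocks) of the whole-series list and of each replicate are drawn to scale by distance in kb from the start of the run, for the run of 13 clusters and for the run of 6 clusters with the highest median score. The first lost 5 of its clusters in replicate 1 and 3 in replicate 2, while all 6 clusters of the second were found in both.

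The score, 1 value per cluster, is the authors' and its scale was not stated in the labels or headers, so it was used for ranks and differences within a list. In the whole-series list, run clusters had a median score of 0.433 (quartiles 0.354 and 0.589), and the other autosomal clusters under 10 kb had 0.447 (0.348 and 0.731). The medians differed by -0.0134, while the upper quartiles lay further apart. Of the run clusters, 44 (3.74%, exact 95% interval 2.73 to 4.99) scored above 1.09, the 90th percentile of all autosomal clusters under 10 kb, against 884 (10.9%, 10.2 to 11.6) of the others. Run clusters had a median length of 2533 bp, against 2385 bp for the others. No test was made, since the spacing that chose the runs and the scores come from 1 list.

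Split by length, the medians of run clusters and other clusters differed by at most 0.0136 up to 2 kb and by more in each longer class. Up to 1500 bp, the median score was 0.347 for 230 run clusters and 0.349 for the others. Over 1500 and up to 2000 bp it was 0.331 and 0.317. Over 2000 and up to 3000 bp, the class with the most run clusters, it was 0.463 for 274 run clusters and 0.494 for the others. Over 3000 and up to 5000 bp it was 0.550 for 265 run clusters and 0.698 for the others, and over 5000 bp it was 0.598 for 217 run clusters and 0.751. The replicate lists showed the same order for the longer classes. From 2 to 3 kb the medians were 0.574 against 0.638 in replicate 1, and 0.567 against 0.597 in replicate 2. From 3 to 5 kb, run clusters found in replicate 1 had a median score there of 0.634 against 0.841, and those found in replicate 2 had 0.660 against 0.764. Over 5 kb the medians were 0.695 against 0.838 for replicate 1, and 0.721 against 0.823 for replicate 2. Run clusters of over 2 kb thus had lower medians in each of the 3 lists, while for clusters of up to 2 kb the order differed between classes and lists. The replicate lists are no independent support, since the whole-series list is built on the same libraries.

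**Figure D3:**
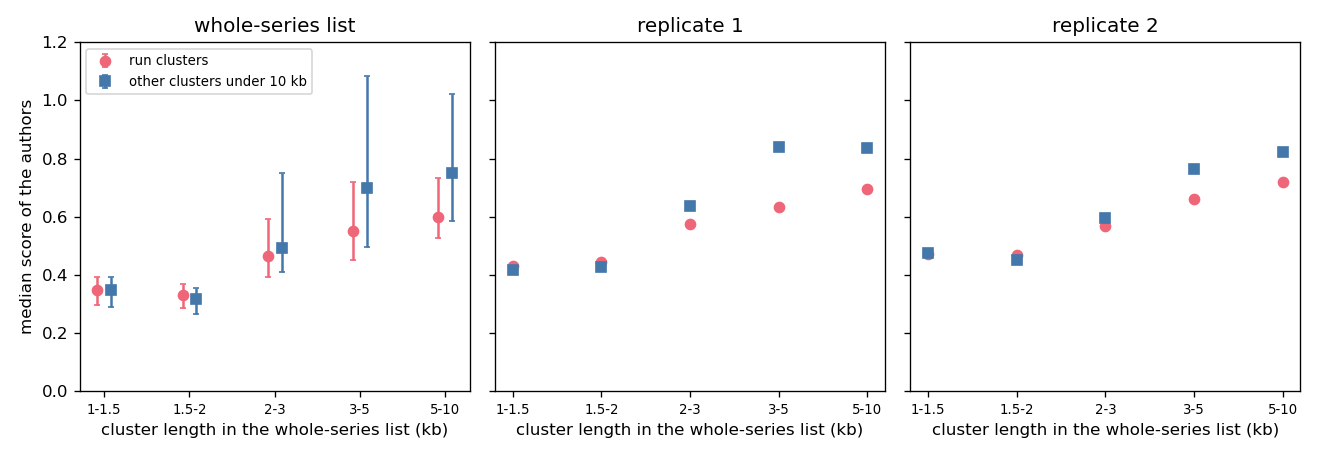
Median scores of the authors (vertical axis, no unit given) are plotted by length class for run clusters (circles) and other autosomal clusters under 10 kb (squares) in the 3 lists. Bars in the first panel are quartiles, and the replicate panels hold only clusters found in that replicate, which in the shortest class were 4.35% and 19.1% of the run clusters. From 2 kb on, the run clusters lie lower in each panel, as at 0.598 against 0.751 for 5 to 10 kb in the whole-series list.

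Scores within a run varied almost as much as scores over all run clusters. The SD within runs was 0.211, against 0.242 over all run clusters and 0.350 over the other clusters under 10 kb. The difference between the highest and the lowest score of a run had a median of 0.346 and ranged from 0.0542 to 1.29. The widest range was found in a run at 2R 9071432 to 9087822, named after its values were seen, where 5 clusters scored 0.463, 0.806, 0.305, 0.365 and 1.59. All scores were under 0.5 in 42 runs and at least 0.5 in 14 runs. Neighbouring clusters of a run had scores with a Spearman's rho of 0.15 over 926 pairs. For other neighbours under 10 kb the rho was 0.24 at gaps under 1500 bp (2099 pairs) and 0.18 at wider gaps (5842 pairs). Pairs overlap, since an inner cluster belongs to 2 of them, and all come from 1 list.

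The highest score had no fixed place within a run. In runs of 4, the highest score was in the first cluster in 41 runs, in the second in 35, in the third in 38 and in the fourth in 41. Over all runs, the highest score lay at an end in 48.6%, and 42.4% of run clusters were at an end. The first share counts runs and the second counts clusters, where runs with more clusters weigh more, so they are not directly comparable. First and last clusters had a median score of 0.458 and a median length of 2716 bp, and inner clusters had 0.420 and 2477 bp. Gap width and the lower of the 2 flanking scores had a rho of 0.06 over the 926 gaps.

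The 5 runs with the highest median scores had only 4 to 6 clusters. The highest median, 1.45, belonged to 6 clusters at 3R 7033640 to 7064864. Their scores in the whole-series list were 1.53, 1.89, 1.52, 1.39, 0.818 and 0.783 in order along the arm. They were 1.50, 1.99, 1.69, 1.43, 0.899 and 0.900 in replicate 1. In replicate 2 they were 1.62, 1.82, 1.43, 1.38, 0.833 and 1.06. The last value is the higher of 2 replicate clusters over that cluster, of which the other scored 0.510. In all 3 lists the first 4 clusters scored above the last 2. A second run of 6 clusters, 3R 11180976 to 11207690, had a median of 1.09, with 1.44 in its first and 0.547 in its last cluster. The others were 3R 19582092 to 19594928 (4 clusters, median 1.02), 3L 9705396 to 9724976 (5 clusters, 1.01) and 2R 9839804 to 9857560 (4 clusters, 1.00).

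Whether the replicates held the clusters of the runs was examined next, and a cluster counted as found if a replicate cluster overlapped it by 1 bp or more. Replicate 1 held 715 of the 1175 run clusters (60.9%, exact 95% interval 58.0 to 63.7), and 63.8% of all autosomal clusters under 10 kb were found there. Replicate 2 held 872 (74.2%, 71.6 to 76.7), and 72.6% of all such clusters were found there. Both held 661 run clusters (56.3%), near the 58.3% of all such clusters. Replicate 2 alone held 211, replicate 1 alone 54 and neither 249. Over all lengths, the share found was thus near the background in each replicate. Within each length class, however, the share for replicate 1 was below that of other clusters under 10 kb. Replicate 2 held more of the run clusters than replicate 1.

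The run clusters that the replicates lacked were short and low in score, with values near those of other clusters that they lacked. For those in neither list the median length was 1277 bp, while it was 3781 bp for those in both. Their median scores were 0.349 and 0.565. The other clusters under 10 kb in neither list had a median of 1319 bp and a score of 0.346. The shortest cluster of the replicate lists measures 1301 bp, while the whole-series list starts just above 1000 bp. Of the run clusters of up to 1500 bp, 4.35% were found in replicate 1, 19.1% in replicate 2 and 0% in both. Other clusters of that length were found at 5.95% and 14.1%. Of the run clusters above 5 kb, 98.2% and 100% were found, against 99.1% and 99.8% of the others. For run clusters over 1500 and up to 2000 bp, replicate 1 held 30.7% and replicate 2 held 55.0%. The other clusters of that length reached 38.3% and 53.7%. Over 2000 and up to 3000 bp the run clusters reached 73.0% and 90.5%, and the others 81.4% and 90.7%. From there up to 5000 bp, run clusters had 88.3% and 97.7%, while the others had 92.6% and 97.9%. Replicate 1 thus held a lower share of run clusters than of others in each length class. For replicate 2 the order differed between classes. Inner clusters were found in 57.2% and 73.6% of cases and end clusters in 65.9% and 75.1%.

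Gaps were then sorted by their state in each replicate. A gap was open when both flanking clusters were found and at least 1 base of the gap was uncovered, bridged when all its bases were covered, and otherwise lacked a flanking cluster. Replicate 1 kept 354 of the 926 gaps open (38.2%), bridged 3 and lacked a flank at 569. Replicate 2 kept 479 open (51.7%), bridged 30 and lacked a flank at 417. For all gaps under 1500 bp between autosomal clusters under 10 kb, runs included, 44.1% were open in replicate 1 and 54.4% in replicate 2. Both replicates kept 297 gaps of the runs open (32.1%, exact 95% interval 29.1 to 35.2), against 37.2% of all such gaps. Outside the runs alone, 829 of 2099 gaps (39.5%, 37.4 to 41.6) were open in both. These intervals treat gaps as independent, although neighbouring gaps share a cluster, and no test was made.

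Where both flanks were found, few gaps were bridged. Of the gaps with both flanks found, 354 of 357 were open in replicate 1 (99.2%) and 479 of 509 in replicate 2 (94.1%). Outside the runs these shares were 98.6% and 97.0%. No gap of a run was bridged in both replicates, and so no run had every gap bridged. At least 1 base was uncovered at 99.7% of the gaps in replicate 1 and 96.8% in replicate 2. The gaps not counted as open therefore were mostly places where a replicate had no cluster on 1 side or on either side, the latter at 181 gaps in replicate 1 and 65 in replicate 2.

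**Figure D4:**
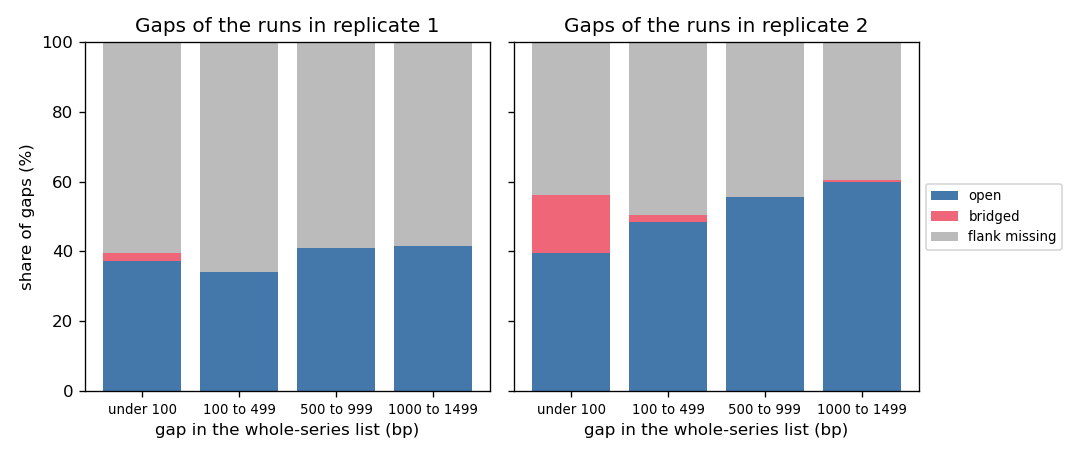
Stacked bars give the share (%) of run gaps that were open, bridged or lacked a flanking cluster, by gap width in the whole-series list in bp, for each replicate. In replicate 2 the open share goes from 39.6% under 100 bp to 60.0% at 1000 to 1499 bp, and 23 of its 30 bridged gaps are under 100 bp.

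In replicate 2 the open share was higher in each wider class of gaps. It was 39.6% for gaps under 100 bp, 48.6% for 100 to 499 bp, 55.6% for 500 to 999 bp and 60.0% for 1000 to 1499 bp. In replicate 1 it was 37.4%, 34.1%, 41.1% and 41.5%, with no such steady order. Between close clusters outside the runs, replicate 2 had open shares of 46.4%, 53.3%, 64.8% and 52.7% for the same classes. Replicate 1 had 41.4%, 45.5%, 53.2% and 43.6% there, and both were highest at 500 to 999 bp. Of the 33 gaps bridged in either list, 26 were under 100 bp. The widest was a gap of 1089 bp at 3R 13580813 to 13581901, which replicate 2 covered whole and which lacked both flanking clusters in replicate 1. The share of gaps open in both replicates followed no steady order with the number of clusters in the run. It was 31.4% for runs of 4, 32.4% for 5, 37.6% for 6 and 28.8% for 7 or more. By arm it lay between 28.3% on 3L and 34.4% on 2R.

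Open gaps were wider in the replicates than in the whole-series list. The rule chose gaps under 1500 bp in the whole-series list, and gaps closed in a replicate do not count as open. Both choices favour wider values in the replicates, so the difference is a description only. In replicate 1, the 354 open gaps had a median width of 1172 bp, against 561 bp in the whole-series list, and 330 of them (93.2%) were wider in the replicate. In replicate 2, the medians of the 479 open gaps were 1073 bp and 609 bp, and 445 (92.9%) were wider. The replicate cluster edges lay outside the gap on both sides in most cases, since 271 of 353 open gaps in replicate 1 and 349 of 478 in replicate 2 had no base covered (the pair that shares a base left out). Only 236 (66.7%) and 354 (73.9%) of the open gaps were still under 1500 bp in the replicate. For open gaps of 100 to 499 bp, median widths in runs were 826.5 bp in replicate 1 and 668.5 bp in replicate 2. Outside the runs, between clusters under 10 kb, they were 527.5 and 556.5 bp. The open gaps of runs had the higher median in each width class and replicate. Found run clusters were covered to a median of 85.0% of their length in replicate 1 and 89.9% in replicate 2, against 93.5% and 92.5% for the other clusters under 10 kb.

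The 2 replicates placed the same gap at similar but not equal widths. For the 297 gaps open in both, the median width was 1186 bp in replicate 1 and 1123 bp in replicate 2, and replicate 1 was the wider in 150. The widths differed by a median of 232 bp. They were within 100 bp of each other at 82 gaps (27.6%), within 500 bp at 203 (68.4%) and within 1000 bp at 245 (82.5%). Spearman's rho of the widths was 0.53 between the replicates, 0.43 between replicate 1 and the whole-series list and 0.58 between replicate 2 and that list. All 3 values describe gaps chosen in the whole-series list, which is not independent of the replicates.

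**Figure D5:**
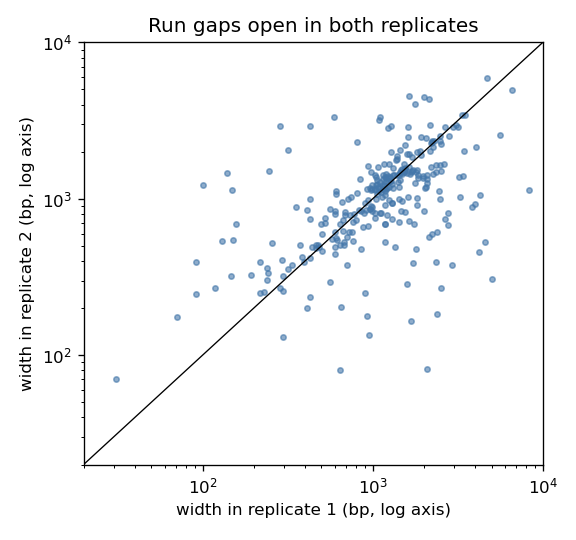
Each point is 1 of the 297 run gaps open in both replicates, with its width in bp in replicate 1 and in replicate 2 on log axes and the line of equal widths. The points scatter to either side of the line, with 150 gaps wider in replicate 1 and a median difference of 232 bp.

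For runs as a whole, 44 (17.7%) had every gap open in replicate 1, 51 (20.5%) in replicate 2 and 26 (10.4%) in both. In 91 runs (36.5%) no gap was open in both replicates at once. In 240 of 249 runs at least 1 cluster was found in each replicate. Of all autosomal clusters under 10 kb, 58.3% were found in both. A run has at least 4 clusters, each of which can be found, and no such share was computed for groups of clusters outside the runs. The share of runs therefore cannot be read as a trait of the runs. The median number of replicate clusters in a run was 3 in replicate 1 and 4 in replicate 2, and they covered a median of 49.8% and 64.8% of the span. In 28 runs every cluster was found in both lists. The exception at the other end was a run of 4 clusters of 1021 to 1487 bp at 3R 9966692 to 9972810, named after its values were seen. None of its clusters was found in either replicate. It also had the shortest span, 6.12 kb, and its scores were 0.224, 0.370, 0.313 and 0.327.

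Of the runs that kept all their gaps in both replicates, those with the most clusters were 2 runs of 6, followed by 5 runs of 5 clusters. The runs of 6 were those with the highest median scores. In the run at 3R 7033640 to 7064864, the gaps of 995, 469, 987, 929 and 855 bp measured 1181, 672, 1036, 1179 and 925 bp in replicate 1. They measured 1065, 621, 1425, 908 and 1153 bp in replicate 2. That replicate also divided the last cluster, and the break inside it is not among these gaps. In the run at 3R 11180976 to 11207690, gaps of 1373, 521, 139, 419 and 357 bp measured 1488, 641, 119, 464 and 495 bp in replicate 1. Replicate 2 placed them at 1546, 506, 268, 510 and 689 bp. The narrowest gap stayed the narrowest in both replicates. The 3 runs of 5 with the longest spans lay at 3R 13147074 to 13172536, 2L 6470474 to 6495292 and 3R 2898696 to 2920214, with median scores of 0.518, 0.841 and 0.850. The other runs of 5 were 3R 20407348 to 20428344 and 3L 9705396 to 9724976, with 0.521 and 1.01.

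The 4 runs with the most gaps lacking a flank, from 12 to 15 over both replicates, had 8 to 13 clusters. In the run of 13 clusters on 3R, 3 of 12 gaps were open in replicate 1 and 4 in replicate 2, and only 2 in both. Its clusters of 1021, 1027 and 1241 bp were in neither replicate. A gap of 57 bp after its second cluster was 3118 bp wide in replicate 1 and bridged in replicate 2. In the run of 11 clusters at 3R 13633464 to 13677442, 2 of 10 gaps were open in replicate 1 and 4 in replicate 2. Its cluster of 9869 bp was split into 3 clusters in each replicate. In the run of 11 on 2L the open gaps numbered 5 and 4. The run of 10 on 3L kept 1 and 2 of 9 gaps open, and the run of 8 at 2L 16050184 to 16074718 kept 1 and 1 of 7. The run of 11 on 2L had 10 gaps with a missing flank over both replicates. So did the run of 8 at 3L 13602680 to 13638708, a run of 7 at 3L 20053152 to 20082716 and a run of 6 at 2R 6870912 to 6892734, the last 2 named after their values were seen.

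Some clusters of runs were overlapped by 2 or more replicate clusters. This held for 84 run clusters (7.15%) in replicate 1 and 108 (9.19%) in replicate 2, with 48 in both. Among the other clusters under 10 kb these shares were 4.40% and 5.21%. An overlap of 1 bp was enough, so replicate clusters that reach in from a neighbour are counted along with true splits. Neighbours in runs lie close by the rule, and splits were not counted apart. Length moved with this. Over 5 kb, 32.7% and 37.3% of the run clusters had 2 or more overlapping replicate clusters, against 27.1% and 28.9% of the others of that length. In a run at 3L 5197894 to 5226112, named after its values were seen, 4 clusters of 5341 to 8505 bp covered 98.7% of the span. Each replicate placed 8 clusters there.

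The rule gave fewer runs when applied to a replicate list itself, and most of them overlapped no run of the whole-series list. Replicate 1 had 114 runs with 510 of its 7377 autosomal clusters (6.91%), and replicate 2 had 146 runs with 687 of 8199 (8.38%). Gaps under 1500 bp were 27.6% and 30.3% of the gaps in these lists. Of the runs of replicate 1, 44 (38.6%) overlapped a run of the whole-series list and 54 (47.4%) a run of replicate 2. Of the runs of replicate 2, 65 (44.5%) overlapped a run of the whole-series list and 54 (37.0%) a run of replicate 1. Clusters of 10 kb or more in the whole-series list, which the rule leaves out, overlapped 53 of the replicate 1 runs and 63 of those of replicate 2. Seen from the whole-series list, 24 of the 249 runs (9.64%) overlapped a run of each replicate, and 166 (66.7%) overlapped no run of either.

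A run could be complete beside a long stretch with no cluster. The widest gap next to any run, 332287 bp, lay to the right of a run of 4 clusters at 3R 12465168 to 12478748, named after its values were seen. All 4 clusters were found in both replicates with each gap open. The scores in order were 0.600, 1.28, 0.763 and 0.482 in the whole-series list. They were 0.654, 1.41, 0.967 and 0.551 for replicate 1, and 0.654, 1.15, 0.512 and 0.466 for replicate 2. The second cluster was the highest and the last the lowest in all 3 lists.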

How the data were processed

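H3K9ac ChIP-seq of fly heads was available as 3 cluster lists. The submitters' processing notes name Bowtie 0.12.7. The cluster caller, its thresholds, the depth and the way the replicates were joined were not stated in any label or header. No precision that needs depth was computed. The authors deposited start, end and 1 score per cluster, in FlyBase release 5 coordinates per the file headers. The scale of the score is not stated there.

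From these lists, neighbouring clusters on 2L, 2R, 3L and 3R were joined into runs of at least 4 clusters under 10000 bp with gaps under 1500 bp. A region named as depleted was left out. A gap is the next start minus the previous end minus 1. Input libraries enter only through the lists. The rule and its look-ups were tested on simulated lists with planted runs. No test was made, since the positions chose the runs and clusters are not replicates. Intervals are exact Clopper-Pearson 95% and cover counting error only. Score comparisons across replicates use the highest-scoring overlapping cluster.

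The members, groupings and alternatives were chosen with earlier results of these data known. Runs named are the 10 with the most clusters (ties by longer span), the 5 with the highest median score, the 5 largest with every gap open in both replicates, the 5 largest with every gap bridged in both (none existed), the 5 with most missing flanks, and values nearest the limits. Windows named are those with the 5 highest counts of runs. Other runs and windows were named after their values were seen. Alternatives changed the gap limit, run size, length limit, score range, overlap and list. Computations ran in Python 3.11.15 with pandas 2.3.3 and numpy 2.4.6, intervals came from scipy 1.17.1 and plots from matplotlib 3.10.9.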

Additional observations from a re-analysis of the deposited data

How the results depend on the processing

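The number of runs followed the limits of the rule. It was 136 with a gap limit of 1000 bp, 663 with at least 3 clusters, 94 with at least 5 and 26 in the upper 50% of the list by score, and it ranged from 114 to 146 with 1 replicate list alone. It stayed within 1.5 times 249 with a limit of 2000 bp (368) and with no length limit (314). The share of autosomal clusters in runs, 12.1%, became 6.40% and 18.3% with gap limits of 1000 and 2000 bp, 24.8% and 5.70% with at least 3 and 5 clusters, 15.5% with no length limit and 2.30% in the upper 50% by score, and ranged from 6.91% to 8.38% with 1 replicate list alone. The share of run gaps open in both replicates, 32.1%, was 26.3% when at least 50% of each flanking cluster had to be covered and 28.7% with a gap limit of 1000 bp, and within its interval in 2 other settings (31.5% with at least 50% of the gap uncovered and 32.8% with at least 5 clusters). With 1 replicate alone the open share ranged from 38.2% to 51.7%. The score difference of -0.0134 kept its sign in all 5 alternatives. It was -0.148 for clusters of over 3 kb and -0.00303 for those of up to 3 kb, and ranged from -0.0638 to -0.0278 with the scores of 1 replicate list alone. Fewer clusters enter under the stricter settings by construction, and otherwise the cause was not tested. No paired analysis was possible because no test compared ChIP with input, which enters only through the lists. Since no list gives reads, the higher share of run clusters in replicate 2 was not compared with depth.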
